A study of Mus musculus with 30 samples.

Results

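Toll-like receptors are membrane proteins that bind conserved molecules of microbes and pass the signal on through adaptor proteins. The 10 receptor genes described here are Tlr1, Tlr2, Tlr3, Tlr4, Tlr5, Tlr6, Tlr7, Tlr8, Tlr9 and Tlr13, chosen by symbol among 55291 genes in tumours of 10 mouse cancer lines. Each line had 3 libraries, 30 in all. From colon carcinoma came MC38 and CT26, with MC38OVA and CT26NYESO1 as their forms labelled for ovalbumin and for NY-ESO-1. From other carcinomas came EMT6 (breast), LL2 (the Lewis line of the lung) and Renca (kidney). CMS5a is a fibrosarcoma line, and B16F1 and B16F10 are melanoma sublines. Tumours grew under the skin of BALB/cJ or C57BL/6J mice to 10 mm, and the labels state that mice were given OK-432, a streptococcal preparation, in the tumour for 24 hours or were not. The labels tie neither strain nor treatment to a library, so the lines were the only groups, and neither could be told apart from the line or from the spread within it. The stated aim was to find cancers suited to OK-432.

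As background, Tlr2 pairs with Tlr1 or Tlr6 at the cell surface and binds bacterial lipopeptides, Tlr4 binds lipopolysaccharide with the help of Cd14 and Ly96, and Tlr5 binds flagellin. Tlr3, Tlr7, Tlr8, Tlr9 and Tlr13 sit in endosomes and bind nucleic acids: Tlr3 binds paired RNA strands, Tlr7 and Tlr8 bind unpaired RNA, Tlr9 binds DNA with CpG motifs, and mouse Tlr13 binds bacterial ribosomal RNA. Macrophages, monocytes, neutrophils and dendritic cells carry many of these receptors, and some epithelial and tumour cells carry a few.

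The libraries are labelled as CD45+ immune cells, while the preparation text describes RNA from suspensions of digested tumours. Ptprc, the gene for CD45, ranged from 2.7 to 215 TPM (a level corrected for gene length and scaled to a fixed total per library). Transcripts of other cells were also present: the summed level of 4 melanocyte genes lay between 8620 and 12500 TPM in B16F10 and between 1370 and 6440 TPM in B16F1, and that of 4 epithelial genes between 1320 and 2020 TPM in Renca. Because TPM share a fixed total, a library rich in such transcripts holds less of every other one. Receptor values were therefore also set against Ptprc of the same library, as TPM per 100 TPM of Ptprc. In bulk RNA, fewer cells of a type and less RNA per cell cannot be told apart.

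Tlr1 and Tlr6 are neighbours on chromosome 5 (mm10, minus strand), Tlr1 at 64924679 to 64933563 and Tlr6 at 64952031 to 64960097, and their sequences bear on how well their levels can be separated. Their coding sequences were 77.0% identical, and 19.4% of the 50-base windows of Tlr1 occurred unchanged in Tlr6. In the other 8 receptors 0% of such windows were found in another member. The longest stretch that Tlr1 and Tlr6 share is 229 bases, bases 1468 to 1696 of the Tlr1 coding sequence and 1507 to 1735 of that of Tlr6. It is shown from Tlr1 in capitals, with 30 bases on each side. Reads inside it cannot be assigned to either gene by sequence, so the split between Tlr1 and Tlr6 is uncertain.
Tlr1: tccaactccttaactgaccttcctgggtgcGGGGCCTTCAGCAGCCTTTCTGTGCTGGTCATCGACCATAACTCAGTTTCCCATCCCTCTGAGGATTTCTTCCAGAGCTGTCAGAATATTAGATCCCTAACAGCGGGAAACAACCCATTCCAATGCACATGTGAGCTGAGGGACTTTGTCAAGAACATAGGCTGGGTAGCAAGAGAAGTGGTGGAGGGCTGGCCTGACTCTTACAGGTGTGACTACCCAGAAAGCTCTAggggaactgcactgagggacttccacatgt

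RefSeq (GRCm38.p6) promoter windows matched 8 of the 10 receptors, all but Tlr4 and Tlr7. The 250 bases before the start are shown for Tlr8, whose level followed the leukocyte genes, and for Tlr9 and Tlr5, whose levels stood apart in MC38OVA and in Renca. Motifs were searched on both strands and are in capitals: the PU.1 core GAGGAA, an interferon element (ISRE; GAAA, any 2 bases, GAAA), a kappaB site (GGGA, any base, TT, any base, CC) and an AP-1 site TGANTCA. The Tlr8 window lies on chromosome X, minus strand, that of Tlr9 on chromosome 9, plus strand, and that of Tlr5 on chromosome 1, plus strand.
Tlr8 (chrX:167264330-167264579): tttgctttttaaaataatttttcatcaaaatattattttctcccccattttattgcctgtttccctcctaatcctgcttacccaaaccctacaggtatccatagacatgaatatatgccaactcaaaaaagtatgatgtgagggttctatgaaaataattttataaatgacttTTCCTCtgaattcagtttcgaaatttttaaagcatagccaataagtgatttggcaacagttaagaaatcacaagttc
Tlr9 (chr9:106222348-106222597): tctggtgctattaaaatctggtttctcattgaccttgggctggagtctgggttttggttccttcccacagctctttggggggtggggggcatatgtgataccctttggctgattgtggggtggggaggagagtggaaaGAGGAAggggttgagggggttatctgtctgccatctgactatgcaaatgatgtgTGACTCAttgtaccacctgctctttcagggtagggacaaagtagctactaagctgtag
Tlr5 (chr1:182954538-182954787): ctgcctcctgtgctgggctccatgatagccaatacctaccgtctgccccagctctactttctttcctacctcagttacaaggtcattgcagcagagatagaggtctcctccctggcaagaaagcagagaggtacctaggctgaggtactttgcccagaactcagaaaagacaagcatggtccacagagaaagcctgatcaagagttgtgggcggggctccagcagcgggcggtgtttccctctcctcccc
The PU.1 core was found before the start of Tlr1, Tlr8, Tlr9 and Tlr13, in 4 of the 10 windows of these 8 receptors, against 23.3% of 32851 such windows of all genes. Tlr1 and Tlr6 had 2 windows each, and the other Tlr1 window held no match. It lay 77 bases before the start of Tlr8, 112 before that of Tlr9 and 83 before that of Tlr13. Tlr9 also held an AP-1 match 58 bases before its start, a motif found in 6.75% of windows. Tlr2 and Tlr3 held a kappaB match (0.98% of windows), 172 and 211 bases before the start, and Tlr6 held ISRE matches (2.98% of windows). None of the 4 motifs was in the Tlr5 window. These are letter matches in short windows, and no binding was measured.

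Every receptor had a value above 0 in every library, and all 10 passed the filter of at least 1 TPM in 3 or more libraries. In single libraries the highest level, 65.8 TPM of Tlr13 in MC38OVA, was far above the lowest, 0.033 TPM of Tlr5 in B16F10. The summed level of the 10 receptors was 256 ± 84.2 TPM in MC38OVA (SD, n = 3, as for all levels, shares and ratios below, while log2 differences carry ± SE), 162 ± 22.0 TPM in LL2 and 143 ± 19.1 TPM in EMT6. It was lowest in B16F1, at 30.9 ± 15.1 TPM, and in B16F10, at 38.7 ± 9.4 TPM. Relative to Ptprc the order turned: the summed receptors were 171 ± 19.8 TPM per 100 TPM of Ptprc in MC38OVA, 459 ± 170 in Renca and 841 ± 415 in B16F10. Tlr4 and Tlr3 together made up most of the B16F10 sum.

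**Figure D1:**
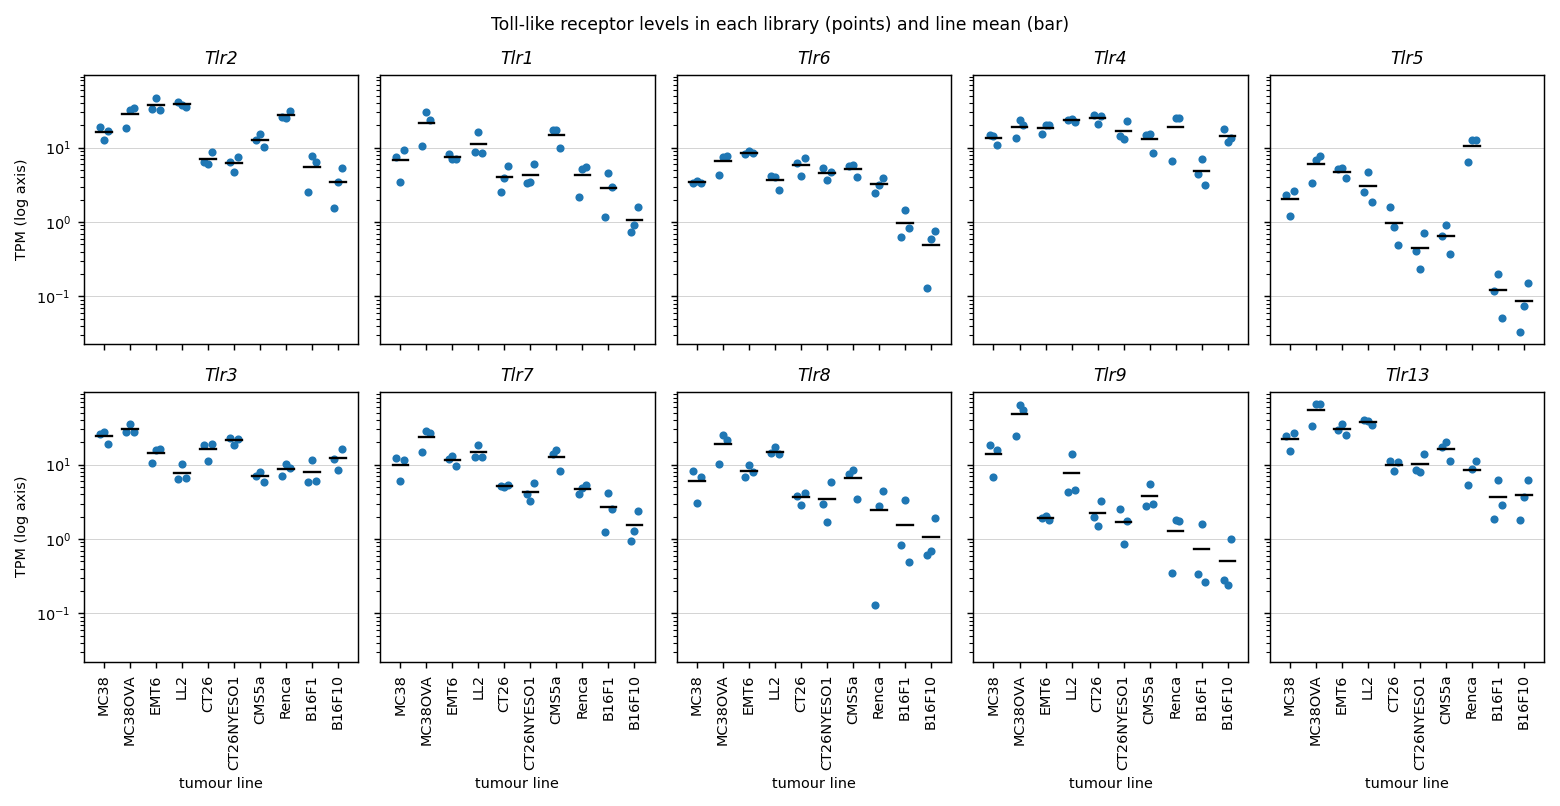
Level of each of the 10 receptors in TPM (log axis) by tumour line; points are the 3 libraries of a line and the bar is their mean. Tlr9 stands highest in MC38OVA at 47.8 TPM, Tlr5 in Renca at 10.5 TPM, and Tlr4 is the receptor of B16F10 with the highest mean, 14.3 TPM.

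Across the 10 lines, 10 of 10 receptors differed in a limma F test on log2(TPM + 1) at an adjusted p under 0.05 with line means at least 1 apart on that scale, against a background of 85.5% of the 17944 genes tested. The adjusted p lay between 1.1e-11 for Tlr5 and 0.000111 for Tlr4. The same rule was then applied to every line, set against the average of the other 9, where each comparison shares its lines with the others. Of 100 combinations of receptor and line, 20 were higher, against a background of 8.71%, and 21 were lower, against 8.09%. MC38OVA, EMT6 and LL2 held 16 of the 20 higher calls, and B16F1 and B16F10 held 17 of the 21 lower calls. When B16F1 and B16F10 were left out, 13 of the 80 remaining combinations were higher (background 7.62%) and 12 were lower (background 6.7%).

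In MC38OVA, 8 of 10 receptors were higher (background 10.2%), all but Tlr4 and Tlr6, with a median difference of 1.57 (log2) over the 10 against 0.05 over all genes tested. Tlr6 missed the call there by size alone (0.77, adjusted p = 0.000696). In EMT6, Tlr2, Tlr5, Tlr6 and Tlr13 were higher (background 10.2%), and in LL2, Tlr2, Tlr7, Tlr8 and Tlr13 were (background 7.98%). The calls of Tlr5, Tlr6 and Tlr13 in EMT6 and of Tlr7 in LL2 were lost without the B16 lines, with differences of 0.82, 0.81, 0.71 and 0.68, and that of Tlr7 also without LL2 replicate 2 (0.90). In B16F1, 9 receptors were lower (background 13.2%), all but Tlr3, and in B16F10, 8 were (background 23.2%), all but Tlr3 and Tlr4. The Tlr1 call in B16F1, -1.02, was lost in 8 of the single-library omissions, for example at -0.65 without B16F1 replicate 1. No receptor was called in CT26 by limma (background 8.25% higher and 4.91% lower), and 4 had an unadjusted p under 0.05 there. These 4 also had an adjusted p under 0.05 and missed the call by size alone. They were Tlr2 (-0.96, adjusted p = 0.00122), Tlr6 (0.63, 0.00443), Tlr4 (0.755, 0.0175) and Tlr5 (-0.58, 0.025). In MC38 and CMS5a 1 receptor each was higher, Tlr9 (background 8.24%) and Tlr1 (background 9.23%), and 1 of 10 is near these shares. In CT26NYESO1 Tlr2 and Tlr5 were lower (background 5.71%). In Renca Tlr2 and Tlr5 were higher (background 12.4%) and Tlr8 and Tlr9 lower (background 10.5%). In the opposite direction no receptor was called in MC38 (background 4.06% lower), MC38OVA (3.59% lower), EMT6 (4.7% lower), LL2 (6.53% lower), CT26NYESO1 (6.84% higher), CMS5a (4.49% lower), B16F1 (8.52% higher) or B16F10 (5.28% higher). Every receptor in B16F1, 9 in MC38OVA and LL2 and 8 in B16F10 had an unadjusted p under 0.05. The share of all genes at that level is not given here, so these counts, like that of CT26, cannot be read as particular to the receptors.

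Leukocyte genes were called in these lines too, least often in EMT6. Of 10 genes that most leukocytes express, 9 were higher in MC38OVA (background 10.2%), 6 in LL2 (7.98%) and 3 in EMT6 (10.2%). In B16F1 10 were lower (13.2%), and in B16F10 9 were (23.2%). Their part in the receptor calls was not tested. The remaining one, Arhgdib, was higher in B16F10, at 396 TPM. Median-ratio scaling of the libraries raised the median of all genes in B16F10 by 0.50 (log2), moved those of the other lines by between -0.14 and 0.15, and turned the split over all genes from 948 higher and 4158 lower to 1831 and 2659 in B16F10. The 8 lower receptors stayed called there, between -1.58 for Tlr1 and -1.32 for Tlr8, while Tlr3 and Tlr4 moved to 0.40 and 0.45, neither called.

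**Figure D2:**
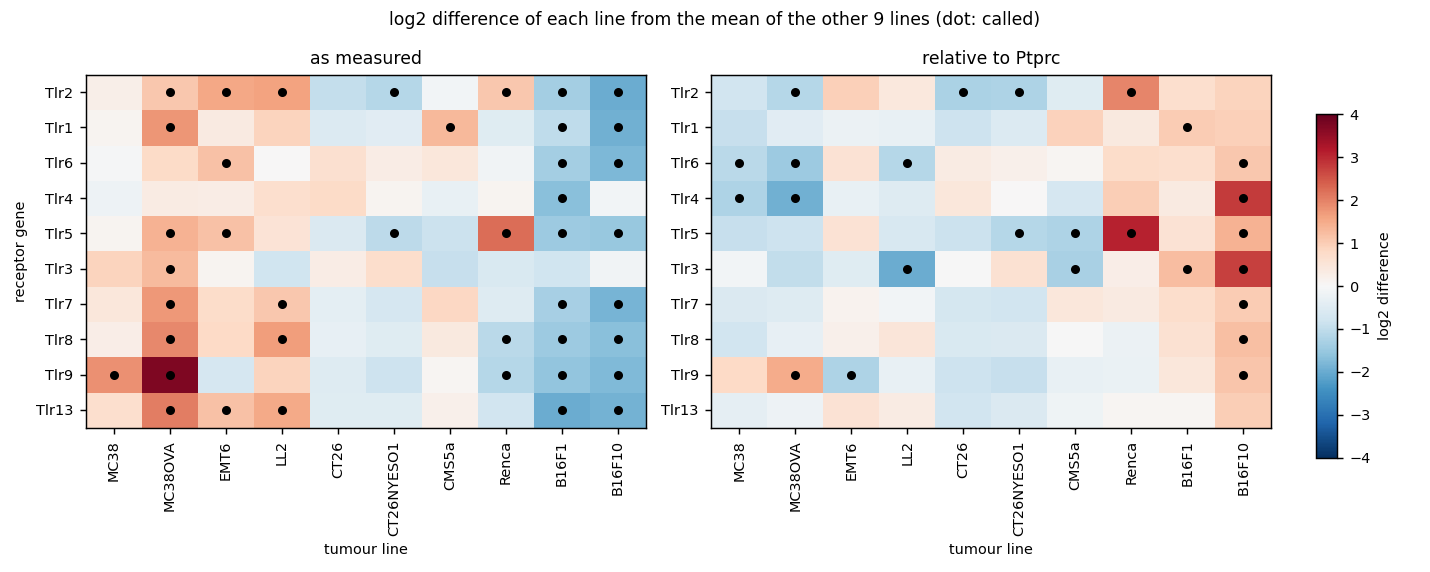
Colour gives the log2 difference of each line (columns) from the mean of the other 9 for each receptor (rows), as measured on the left and after subtracting log2(Ptprc TPM + 1) on the right; a dot marks a call. As measured, calls gather in MC38OVA (8 higher), B16F1 (9 lower) and B16F10 (8 lower), while on the right Tlr5 in Renca is highest at 3.09.

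After log2(Ptprc TPM + 1) was subtracted from every gene, 9 of 10 receptors differed between lines (background 99.7%), and 12 of 100 combinations were higher and 13 lower (background 23.9% and 24.6%). Nearly all genes differed on this scale, so the count of receptors says little and the sizes are given instead. Tlr13 was the receptor that did not pass (adjusted p = 0.0548). Among the listed pathway genes described further on, Irf5 and Myd88, a transcription factor and the adaptor that most of these receptors use, also did not pass (adjusted p of 0.154 and 0.0969). In B16F10 7 receptors were higher and in B16F1 2 were, but so were 92.6% and 87.5% of all genes. Renca had 2 higher (background 36.2% higher and 2.61% lower), MC38OVA 1 higher and 3 lower (0.368% and 92.4%), MC38 2 lower (1.79% and 45.5%) and LL2 2 lower (1.4% and 64.8%). EMT6 had 1 lower (4.6% and 18.4%), CT26 1 lower (4.9% and 7.21%), CT26NYESO1 2 lower (4.65% and 5.6%) and CMS5a 2 lower (4.78% and 8.35%). The 3 lines with the lowest Ptprc, Renca, B16F1 and B16F10, thus held 11 of the 12 higher calls, and the exception was Tlr9 in MC38OVA. The values that follow are given first as plain TPM, then relative to Ptprc.

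Among the lipopeptide receptors, Tlr2 (chromosome 3, 83836272 to 83841767) was highest in LL2, EMT6, MC38OVA and Renca. It reached 41.8, 37.9 and 35.2 TPM in the 3 LL2 libraries and 33.3, 46.3 and 32.4 TPM in those of EMT6. In Renca it was 25.9, 25.2 and 31.3 TPM, and in MC38OVA 18.5, 31.9 and 34.4 TPM. These 4 lines overlapped each other in that order, and none of the other 6 lines reached the lowest Renca library. Tlr2 differed from the other lines by 1.60 ± 0.23 (log2 difference ± SE) in LL2 (adjusted p = 2.06e-06), by 1.55 ± 0.23 in EMT6 and by 1.09 ± 0.23 in Renca. The Renca call was lost without its replicate 3 (0.99) and without the B16 lines (0.68), and the MC38OVA call (1.08) without its replicate 2 or 3 (0.97 and 0.92). CT26NYESO1 was lower by -1.15 ± 0.23, a call lost without its replicate 2 (-0.99), with 6.32, 4.67 and 7.41 TPM. B16F1 and B16F10 had the lowest means, 5.55 ± 2.7 and 3.46 ± 1.92 TPM, and the B16F1 call (-1.37) was lost without its replicate 1 (-0.98).

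Relative to Ptprc, Tlr2 was highest in Renca, at 280, 84.2 and 111 TPM per 100 TPM of Ptprc. The first of these libraries also had the lowest Ptprc of Renca, 9.28 TPM against 29.9 and 28.1. EMT6 followed at 73.7 ± 18.0, and MC38OVA, CT26 and CT26NYESO1 were lowest, at 19.2, 16.8 and 16.3. Each of these was called lower: MC38OVA by -1.15 (background 92.4%), CT26 by -1.25 (7.21%) and CT26NYESO1 by -1.25 (5.6%). The Renca difference was 1.95 ± 0.37 (log2, adjusted p = 7.38e-06, background 36.2%, median of all genes 0.72). When a score of 6 myeloid genes took the place of Ptprc it was 0.71 (adjusted p = 0.0614), and the call was lost. Tlr2 held 32.2 ± 9.4% of the summed receptor TPM in Renca and 26.0 ± 1.9% in EMT6, against 8.7 ± 1.1% in CT26.

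Tlr1, a partner of Tlr2, had its highest levels in MC38OVA, at 10.4, 29.9 and 23.7 TPM, and in CMS5a, at 17.5, 17.3 and 9.76 TPM. The difference from the other lines was 1.77 ± 0.29 in MC38OVA (adjusted p = 1.54e-05) and 1.31 ± 0.29 in CMS5a (adjusted p = 0.000608, background 9.23%). The CMS5a call was lost without the B16 lines (0.97). Relative to Ptprc, CMS5a had the highest mean, with 31.0, 33.3 and 31.9 TPM per 100 TPM of Ptprc, while MC38OVA was at 13.6 ± 1.5. CMS5a overlapped B16F1, whose libraries ran from 19.1 to 42.2, and its difference was not called (0.92, adjusted p = 0.083). Tlr1 made up 15.9 ± 1.3% of the summed receptors in CMS5a, above its share of 8.98 ± 2.7% in B16F1.

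Tlr6, the other partner, stood highest in EMT6, at 8.15, 8.99 and 8.37 TPM, above each library of the next line, MC38OVA, with 4.25, 7.57 and 7.80 TPM. The EMT6 difference was 1.18 ± 0.17 (adjusted p = 2.61e-06). Renca, the last of the 8 other lines, had 3.21 ± 0.75 TPM, and B16F1 and B16F10 lay below it, at 0.972 ± 0.422 and 0.494 ± 0.325 TPM. Relative to Ptprc, Tlr6 in EMT6 was 17.2 ± 5.2 TPM per 100 TPM of Ptprc and overlapped Renca, at 17.1 ± 8.4, and EMT6 was not called (0.59 ± 0.36, adjusted p = 0.211). The mean was lowest in MC38OVA, at 4.42 ± 0.79, where the difference of -1.47 (background 92.4%) was called but lost with the leukocyte or myeloid score or with Ptprc as a covariate. LL2, at 4.96 ± 1.35, and MC38, at 5.32 ± 2.03, overlapped MC38OVA. Both were also called lower, by -1.16 (background 64.8%) and -1.07 (background 45.5%). The ratio of Tlr1 to Tlr6 was 3.15 ± 0.76 in MC38OVA and 3.10 ± 0.98 in LL2, and 0.71 ± 0.27 in CT26 and 0.88 ± 0.10 in EMT6. Libraries of MC38OVA, at 2.45 or more, and of EMT6, at 0.995 or less, did not overlap in this ratio. Because these genes share the run printed above, the ratio depends on how shared reads were divided.

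Tlr4 (chromosome 4, 66827584 to 66930284) had the highest adjusted p of the receptors in the F test. It ran from 27.5, 20.9 and 26.7 TPM in CT26 to 4.44, 7.02 and 3.15 TPM in B16F1. Each of the 9 other lines overlapped its neighbour in the order of means. B16F1 lay below CMS5a, the next line up, without overlap, but the lowest Renca library, at 6.68 TPM, lay within the range of B16F1. The B16F1 difference was -1.68 ± 0.25 (adjusted p = 2.82e-06, as measured), and it was the one line called. B16F10 kept 17.7, 11.9 and 13.5 TPM, so that Tlr4 was 38.3 ± 11.2% of its summed receptors, against 16.7 ± 5.7% in B16F1 and 7.65 ± 0.75% in MC38OVA.

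Relative to Ptprc, Tlr4 in B16F10 was 656, 233 and 161 TPM per 100 TPM of Ptprc, above each of the other 9 lines, of which Renca was next at 72.0, 83.3 and 89.3. The wide spread goes with Ptprc of 2.7, 5.11 and 8.35 TPM in those 3 libraries. The difference was 2.79 ± 0.38 (adjusted p = 1.12e-10), but the background was 92.6% and the median of all genes 2.40. MC38OVA was lowest, at 15.5, 10.9 and 12.8, and its difference of -1.92 ± 0.38 (background 92.4%) was lost when Ptprc was a covariate (-0.85, adjusted p = 0.08). In the B16F10 libraries the 6 fibroblast markers summed to 4.64 to 13.8 TPM, below every other line, and the melanocyte markers were above every other line. The 7 macrophage markers summed to 132 to 431 TPM there and overlapped those of B16F1, at 260 to 868 TPM. The mean log2(TPM + 1) of these markers was lower in B16F10, at 3.76 ± 0.695, than in B16F1, at 5.06 ± 0.713, and the lowest of all lines. The part of these cells in the Tlr4 level was not tested.

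Genes that work with Tlr4 had other orders of lines. Ly96, which binds lipopolysaccharide with Tlr4, varied little, from 10.8 ± 3.0 TPM in B16F1 to 20.6 ± 4.6 in MC38OVA, and its lines were less than 1 apart (log2, 0.88). Cd14, the coreceptor that hands lipopolysaccharide over, was 193 ± 36.3 TPM in EMT6 and 168 ± 22.1 in Renca, and 6.42 ± 3.20 in B16F1. The ratio of Cd14 to Tlr4 was 10.4 ± 1.6 in EMT6, against 2.9 to 3.9 in MC38, MC38OVA, LL2, CT26, CT26NYESO1 and CMS5a. In Renca it was 12.8 ± 10.5, overlapping EMT6, and in B16F1 and B16F10 it was lowest, at 1.54 ± 1.23 and 1.41 ± 1.63. Lbp, the binding protein that carries lipopolysaccharide to Cd14, was 90.4 ± 22.5 TPM in Renca, 63.4 ± 54.6 in B16F1 and 0.118 ± 0.081 in B16F10.

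Tlr5, the flagellin receptor (chromosome 1, 182954788 to 182976044), was highest in Renca, at 6.42, 12.5 and 12.5 TPM. MC38OVA followed, at 3.35, 6.82 and 7.66 TPM, and EMT6, at 5.13, 5.26 and 3.94 TPM. The lowest Renca library lay within the range of MC38OVA. CT26NYESO1 was at 0.403, 0.235 and 0.708 TPM, and B16F1 and B16F10 were below each of its libraries, at 0.123 ± 0.075 and 0.0867 ± 0.060 TPM. In 14 of the 30 libraries Tlr5 was under 1 TPM. The differences from the other lines were 2.22 ± 0.21 in Renca (adjusted p = 5.74e-10, background 12.4%) and 1.40 ± 0.21 in MC38OVA (adjusted p = 3.25e-06). CT26NYESO1 was lower by -1.05 ± 0.21 (background 5.71%), a call lost without its replicate 2 (-0.95).

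Set against Ptprc, Tlr5 set Renca apart: 69.1, 41.8 and 44.6 TPM per 100 TPM of Ptprc, against 14.5, 7.60 and 7.30 in EMT6, the next line, and 4.81 or less in each library of MC38OVA. The Renca difference was 3.09 ± 0.37 (log2, adjusted p = 4.32e-12, background 36.2%, median of all genes 0.72), and it remained called under each alternative, from 1.85 to 4.08. Tlr5 held 11.5 ± 1.0% of the summed receptors in Renca and 3.36 ± 0.50% in EMT6. Epithelial markers ran in the same order in these lines, with sums of 1320 to 2020 TPM in Renca, 618 to 709 in EMT6 and 177 to 319 in LL2. Their part was not tested, and MC38OVA, with Tlr5 second as measured, had an epithelial sum of 2.62 to 3.68 TPM.

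Tlr9, the DNA sensor (chromosome 9, 106222598 to 106226883), showed the largest difference of any receptor from the other lines as measured. It was 24.5, 63.9 and 54.9 TPM in MC38OVA and 18.3, 6.91 and 16 TPM in MC38. LL2 followed at 4.36, 13.9 and 4.60 TPM, overlapping MC38, and the other 7 lines had means from 3.77 TPM in CMS5a down to 0.508 in B16F10. The difference was 3.73 ± 0.31 in MC38OVA (adjusted p = 1.91e-10) and 1.82 ± 0.31 in MC38 (adjusted p = 3.06e-05, background 8.24%), and both were called under each alternative. Renca was lower by -1.13 ± 0.31 (background 10.5%), with 0.346, 1.79 and 1.75 TPM, and the call was lost without its replicate 1 (-0.79, adjusted p = 0.0734).

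Relative to Ptprc the MC38 lines stayed apart in Tlr9. MC38OVA was at 28.0, 29.7 and 34.4 TPM per 100 TPM of Ptprc and MC38 at 23.3, 14.9 and 19.3, and neither overlapped the line next below it. LL2 came next at 9.46 ± 4.43, with its highest library at 14.6, just under MC38, and EMT6 was lowest at 3.91 ± 1.26. The MC38OVA difference was 1.49 ± 0.36 (log2, adjusted p = 9.03e-05), where 0.368% of genes were higher and the median of all genes was -2.19. It was called under each alternative, between 1.39 and 2.26. MC38 itself was not called (0.79, adjusted p = 0.0532). EMT6 was lower by -1.25 ± 0.36 (background 18.4%), a call lost without its replicate 2 (adjusted p = 0.135) or 3 (adjusted p = 0.0755).

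Shares and ratios, which need no reference gene outside the family, placed Tlr9 likewise. It made up 18.1 ± 2.5% of the summed receptors in MC38OVA and 11.3 ± 3.4% in MC38, and 4.5% or less in the mean of each other line. Single libraries of MC38 and LL2 overlapped in this share, at 7.37% in the lowest of MC38 and 7.51% in the highest of LL2. The ratio of Tlr9 to Tlr7 was 1.99 ± 0.29 in MC38OVA and 1.35 ± 0.19 in MC38. No library of these lines was under 1.14, and no library of the other 8 lines was above 0.758. The 6 monocyte markers summed to 959 to 2880 TPM in MC38OVA, 526 to 1010 in MC38 and 811 to 845 in CMS5a. The 6 markers of plasmacytoid dendritic cells summed to 1230 to 1620 TPM in MC38OVA and 1340 to 1780 in MC38, against at most 740 elsewhere, but Bst2 made up most of this sum. Their mean log2(TPM + 1) did not set the MC38 lines apart. It was 4.02 in CMS5a, 3.86 in MC38OVA, 3.86 in CT26, 3.80 in CT26NYESO1 and 3.67 in MC38. Siglech was 2.09 TPM in MC38 and 4.13 TPM in MC38OVA, below the 10.35 TPM of CMS5a, while Cox6a2 was 13.3 ± 2.4 TPM in MC38 and 7.04 ± 3.37 in MC38OVA, above the 3.13 ± 0.49 of CMS5a. The 5 B cell markers reached 20.1 TPM in MC38OVA and 26.4 in CMS5a. The part of these cells in the Tlr9 level was not tested.

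**Figure D3:**
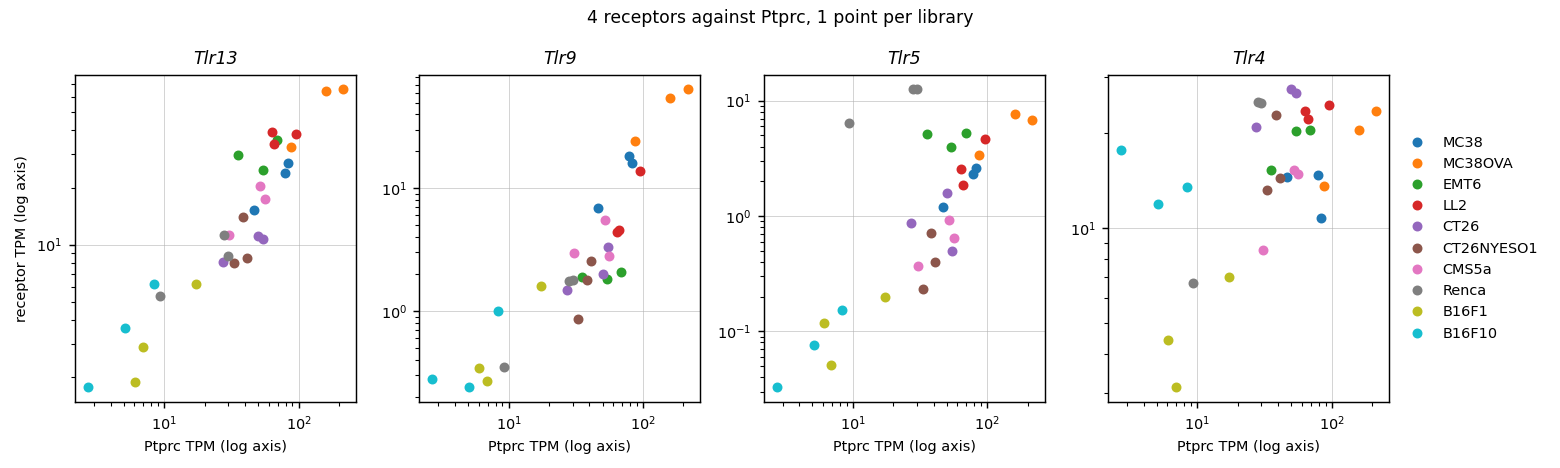
Level of Tlr13, Tlr9, Tlr5 and Tlr4 against Ptprc, both in TPM on log axes, 1 point per library coloured by tumour line. Tlr13 rises with Ptprc across the libraries, the MC38 and MC38OVA libraries lie high for Tlr9, the 3 Renca libraries lie high for Tlr5, and Tlr4 in B16F10 stays above 11 TPM where Ptprc is lowest.

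Tlr7 and Tlr8, the RNA sensors that neighbour each other on chromosome X (167304929 to 167330558 and 167242696 to 167264329), had similar orders of lines. Tlr7 was 14.7, 28.8 and 26.3 TPM in MC38OVA, overlapping LL2 at 12.7, 18.4 and 12.8 TPM, and ended at 1.53 ± 0.73 TPM in B16F10. Tlr8 was 10.2, 24.7 and 21.6 TPM in MC38OVA and 14.2, 17.1 and 13.7 TPM in LL2, which lay above each library of EMT6, the third line. The differences of Tlr7 were 1.73 ± 0.23 in MC38OVA and 1.06 ± 0.23 in LL2, and those of Tlr8 were 1.92 ± 0.35 and 1.67 ± 0.35. Tlr8 in Renca was 0.129, 2.76 and 4.47 TPM and was called lower (-1.09), which rested on replicate 1: without it the difference was -0.42 (adjusted p = 0.341). Relative to Ptprc, line means of Tlr7 stayed between 11.5 and 29.6 TPM per 100 TPM of Ptprc and those of Tlr8 between 8.34 and 20.3. The call of Tlr7 in B16F10 on that scale (1.01, background 92.6%) turned to -0.05 with a leukocyte score in place of Ptprc.

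Tlr13, the sensor of bacterial ribosomal RNA (chromosome X, 106143204 to 106160493), was highest in MC38OVA and LL2, which also had the most Ptprc. It was 32.9, 65.8 and 64.7 TPM in MC38OVA, 39.4, 38.2 and 33.9 TPM in LL2 and 29.6, 35.7 and 24.7 TPM in EMT6, and 3.66 ± 2.25 TPM in B16F1. Each line overlapped the next in this order. The differences were 2.05 ± 0.26 in MC38OVA (adjusted p = 3.38e-07), 1.52 ± 0.26 in LL2 and 1.17 ± 0.26 in EMT6, and -1.97 ± 0.26 in B16F1. Set against Ptprc, it lay between 23.9 ± 5.3 TPM per 100 TPM of Ptprc in CT26 and 70.7 ± 4.4 in B16F10, and no line was called. Tlr13 had the highest mean of the 10 receptors in MC38OVA and CMS5a.

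Tlr3, which binds paired RNA strands (chromosome 8, 45395665 to 45411080), was ordered differently from the rest. It was 27.7, 35.1 and 27.5 TPM in MC38OVA, above each MC38 library (26.1, 27.3 and 18.9 TPM), and CT26NYESO1 came next at 22.8, 18.5 and 22.2 TPM. CMS5a was lowest at 7.10, 8.0 and 5.85 TPM, overlapping LL2 at 6.41, 10.1 and 6.54 TPM. The MC38OVA difference of 1.26 ± 0.19 (adjusted p = 6.37e-06) was the one call as measured. Those of CMS5a (-0.92, adjusted p = 0.000338), MC38 (0.91, adjusted p = 0.000453) LL2 (-0.80, adjusted p = 0.00128), B16F1 (-0.81, adjusted p = 0.000939), CT26NYESO1 (0.72, adjusted p = 0.00384) and Renca (-0.60, adjusted p = 0.00981) were under 1 in size.

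Relative to Ptprc, Tlr3 in LL2 was 10.1, 10.6 and 9.88 TPM per 100 TPM of Ptprc, below each library of the other 9 lines. Its difference of -1.98 ± 0.37 (log2, adjusted p = 7.7e-06) was called under each alternative, where 64.8% of genes were lower and the median of all genes was -1.23. CMS5a was next lowest at 15.7 ± 3.3, and its call (-1.31, background 8.35%) was lost without its replicate 1 (-1.16) or 2 (-1.29). At the other end stood B16F10, with 439, 166 and 197, and B16F1, with 97.6, 67.1 and 88.2. Both lay above each library of CT26NYESO1 at 55.3, 56.0 and 58.0. The highest Renca library, at 75.6, lay within the range of B16F1. The B16F10 difference of 2.74 ± 0.37 had a background of 92.6% and was lost when Ptprc was a covariate (0.99). The ratio of Tlr3 to Tlr7 was 0.523 ± 0.026 in LL2, 0.570 ± 0.115 in CMS5a, 5.08 ± 1.03 in CT26NYESO1 and 8.68 ± 3.28 in B16F10.

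**Figure D4:**
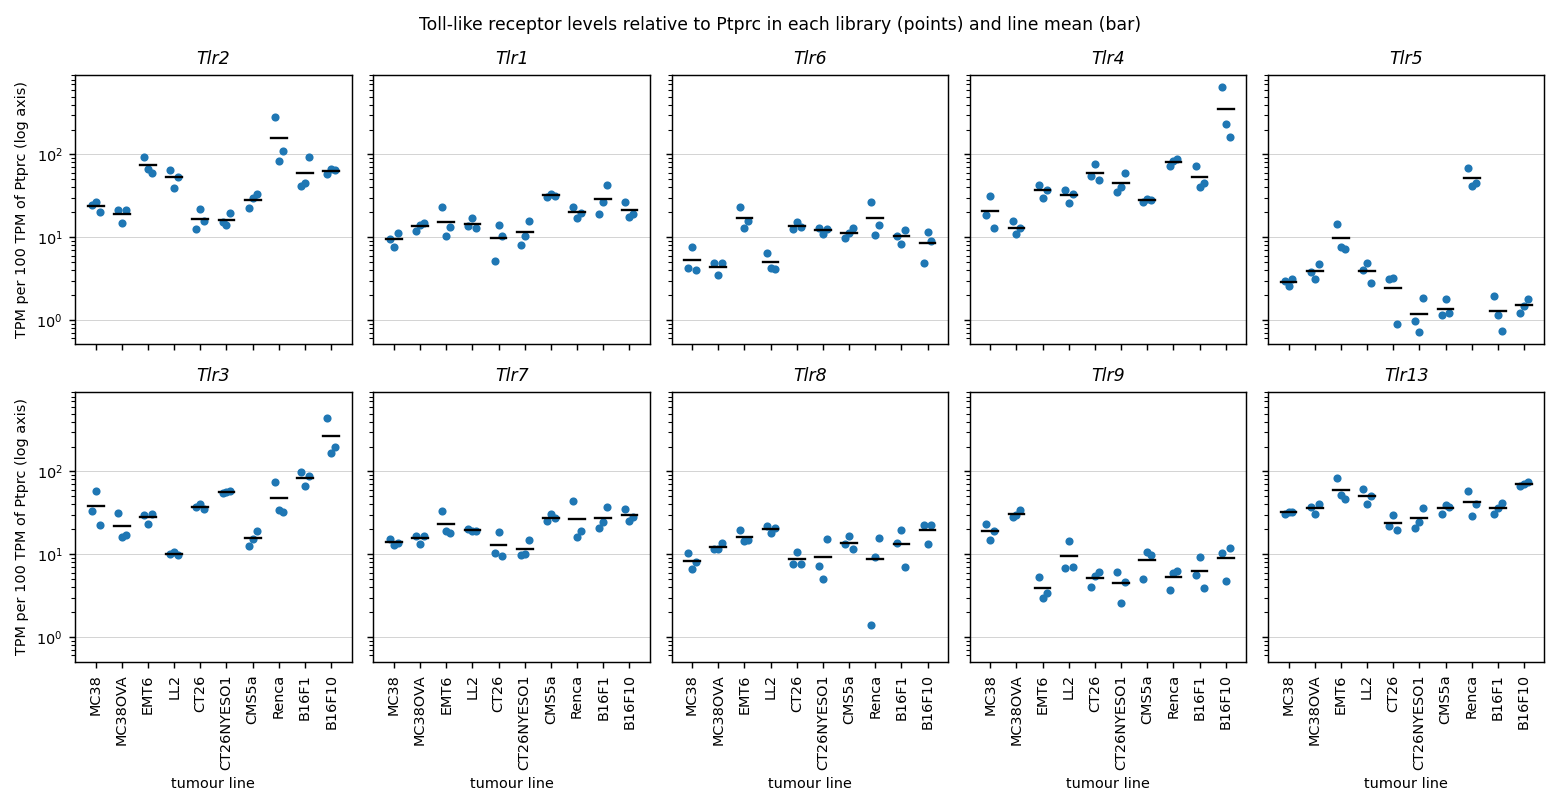
Each receptor in TPM per 100 TPM of Ptprc (log axis) by tumour line; points are the 3 libraries of a line and the bar is their mean. The highest and lowest line means of Tlr13, Tlr7 and Tlr8 are 2.96-, 2.57- and 2.43-fold apart, less than those of the other receptors, while Tlr5 reaches 51.9 in Renca, Tlr9 reaches 30.7 in MC38OVA, and Tlr3 and Tlr4 reach 268 and 350 in B16F10.

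**Figure D5:**
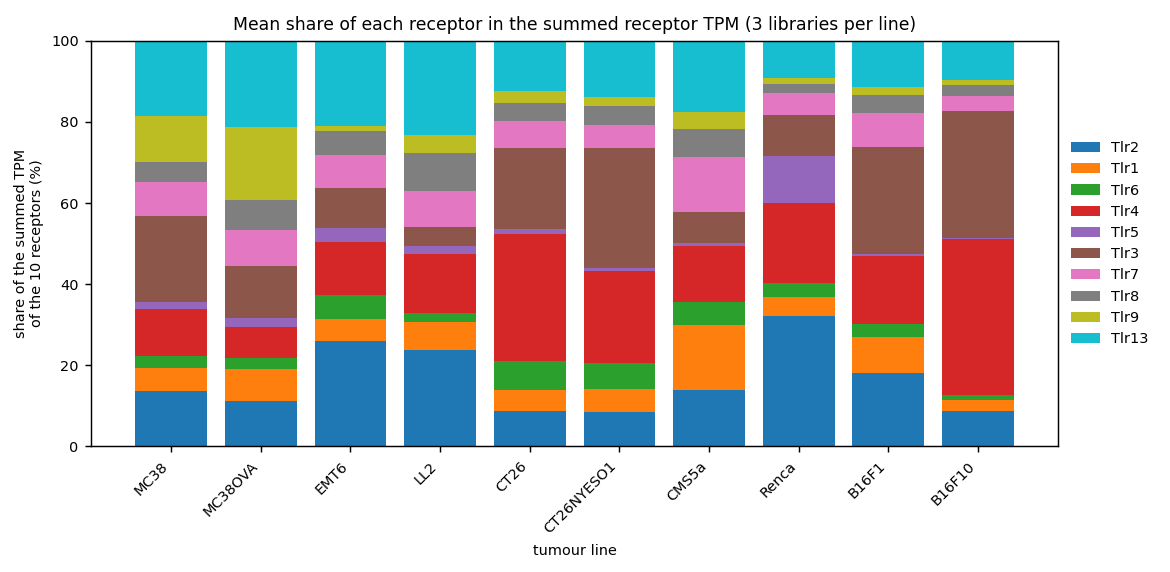
Stacked bars give the mean share (%) of each receptor in the summed TPM of the 10 receptors for each line, 3 libraries per line. Tlr2 takes 32.2% in Renca, Tlr4 38.3% in B16F10, Tlr9 18.1% in MC38OVA and Tlr1 15.9% in CMS5a.

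The related lines were compared directly. Against MC38, MC38OVA was higher in 4 of 10 receptors (background 1.14%): Tlr9 by 1.72 ± 0.42 (adjusted p = 0.0277), Tlr5 by 1.16 ± 0.28 (0.026), Tlr1 by 1.49 ± 0.39 (0.0428) and Tlr7 by 1.16 ± 0.30 (0.0429). These 4 calls were lost with a pseudocount of 0.1, and without MC38 replicate 2, MC38OVA replicate 2 or MC38OVA replicate 3. Those of Tlr1 and Tlr7 were lost in 8 and 12 of the single-library omissions. Of the leukocyte genes, 1 of 10 was called in this pair (background 1.14% higher and 0.167% lower), with a median of 1.10 over the 10. Ptprc itself was 87.5, 215 and 159 TPM in MC38OVA against 78.7, 46.6 and 83.0 in MC38. Relative to Ptprc, limma called 0 of 10 receptors (background 0% higher and 0.563% lower), and 0 had an unadjusted p under 0.05. The difference of Tlr9 on that scale was 0.63 with a 95% interval of -0.39 to 1.64.

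In CT26NYESO1 against CT26, limma called 0 of 10 receptors (background 0.379% higher and 1.89% lower), and 0 had an unadjusted p under 0.05. The 95% intervals still allow differences past 1: that of Tlr4, the largest in size, ran from -1.29 to 0.13. In B16F10 against B16F1, Tlr4 was higher by 1.42 ± 0.34 (adjusted p = 0.00137, background 4.53%), with 17.7, 11.9 and 13.5 TPM against 4.44, 7.02 and 3.15 and no overlap. It was called under each alternative that kept these lines, between 1.20 and 1.79. Relative to Ptprc the difference was 2.18 ± 0.50 (adjusted p = 0.000918, background 6.62%), between 1.59 and 2.54 over the alternatives. The other 9 receptors were not called in this pair. Median-ratio scaling moved the median of all genes by 0.33 here and their split from 813 higher and 2937 lower to 1477 and 2091, and Tlr3, at 0.59 (adjusted p = 0.0715), became 0.94 (adjusted p = 0.00534).

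The change from MC38 to MC38OVA was also set against that from CT26 to CT26NYESO1. Tlr5 differed between them by 1.59 ± 0.39 (log2, 95% interval 0.77 to 2.41, adjusted p = 0.0203, background 2.22%), being 1.16 higher in MC38OVA than in MC38 and -0.43 in CT26NYESO1 relative to CT26. The other 9 receptors were not called, and 9 of 10 had an unadjusted p under 0.05. That count has no share of all genes beside it and cannot be read as particular to the receptors. The Tlr5 call was lost without CT26 replicate 1 (1.38), CT26NYESO1 replicate 2 (1.48), MC38 replicate 2 (1.37), MC38OVA replicate 2 (1.47) or MC38OVA replicate 3 (1.40). Relative to Ptprc it was 0.33 (adjusted p = 0.674), with 0 of 10 receptors called and 0 at an unadjusted p under 0.05 (background 0.0279% higher and 0.1% lower).

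Across the 10 line means of log2(TPM + 1), the receptors fell into groups with like orders of lines. These correlations are over n = 10 lines that share their libraries and their leukocyte content, and are descriptions. Tlr8 and Tlr13 had Pearson r = 0.978, Tlr1 and Tlr7 0.971, and Tlr7 and Tlr13 0.965, and without the B16 lines (n = 8) these were 0.971, 0.946 and 0.940. Tlr2 and Tlr5 had r = 0.880. Tlr3 and Tlr4 were less like the rest: the highest r of Tlr3 was 0.577, with Tlr9, and that of Tlr4 0.602, with Tlr6. Without the B16 lines the highest r was 0.526 for Tlr3 and 0.253 for Tlr4.

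For each receptor the genes with the most similar line means were taken from all tested genes. Tlr13 was closest to Cd53, a tetraspanin of leukocytes (r = 0.995), then to Plcb2, a phospholipase, and Lcp1, an actin-bundling protein of leukocytes. Tlr8 was closest to Mpeg1, the macrophage perforin (0.986), to Dock2, an activator of Rac in blood cells, and to Tlr13. Tlr7 was close to Gad1-ps, a pseudogene (0.985), and Mpeg1. Tlr1 was closest to Gad1-ps, Tlr7 and Gpr65, a proton-sensing receptor, and Tlr6 to Stk17b, a kinase (0.986), 2310001H17Rik and Gm49368. Tlr9 was closest to Ifit1bl1, an interferon-induced gene (0.990), Pigz and Gm6545. Tlr3 was closest to Pdcd1, which encodes the T cell receptor PD-1 (0.946), the exonuclease gene Eri1 and Ifng, the gene for interferon gamma. Tlr2 was closest to Cnr2, a cannabinoid receptor of immune cells (0.953), Slamf9 and Stambpl1. Tlr4 was closest to Cdc42ep4 (0.965), Mfsd8 and Gm9887, and Tlr5 to Gm38079 (0.975), Slc4a11 and Rab44.

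Scores of cell type markers placed the receptors similarly. The leukocyte score had r = 0.975 with Tlr13, 0.959 with Tlr7 and 0.954 with Tlr8, and without the B16 lines 0.976, 0.933 and 0.985. The myeloid score had r = 0.936 with Tlr2 and 0.919 with Tlr7. The monocyte score had r = 0.921 with Tlr9, and also 0.932 with Tlr7, 0.923 with Tlr13 and 0.919 with Tlr8. Without the B16 lines it had 0.958 with Tlr9, and 0.849, 0.823 and 0.854 with Tlr7, Tlr13 and Tlr8. Tlr3 had r = 0.805 with the NK cell score, against 0.810 for Tlr9, and without the B16 lines 0.832 against 0.73. With the T cell score Tlr3 had r = 0.779, and with the macrophage score -0.013. Tlr5 had r = 0.760 with the epithelial score and 0.784 with the myeloid score. Tlr4 was below 0.68 with each score, and its r with the leukocyte score fell from 0.617 to 0.225 without the B16 lines.

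Other genes of the pathway were counted by list in the F test over lines, where the background is 85.5%. Among coreceptors and chaperones, 9 of 11 differed, all but Ly96 and Slc15a4. Unc93b1, which carries the nucleic acid receptors to endosomes, was 182 ± 55.5 TPM in MC38OVA and 19.4 ± 10.1 in B16F10. Hsp90b1, a chaperone of the receptors, ran from 444 ± 66.0 TPM in B16F1 to 915 ± 43.7 in CMS5a. Slc15a4, a transporter of endosomes and lysosomes, was 28.3 ± 1.7 TPM in Renca and at most 17.7 in the mean of each other line. Among adaptors and signalling genes, 20 of 22 differed, all but Ticam1, the adaptor of Tlr3 and Tlr4, and Map3k7, a kinase. Myd88 was 103 ± 29.7 TPM in MC38OVA, 72.5 ± 8.5 in MC38 and 9.08 ± 3.35 in B16F10. Traf6, a ubiquitin ligase of the pathway, was 16.9 ± 1.3 TPM in EMT6 and 8.11 ± 3.73 in B16F1, and Tab1, a partner of Map3k7, was 25.0 ± 8.5 in B16F1 and 10.2 ± 1.8 in B16F10.

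Of the inhibitors, 8 of 8 differed between lines. Sigirr, an inhibitory member of the interleukin-1 receptor family, was 100.4 ± 11.8 TPM in CT26NYESO1 and 89.4 ± 18.8 in CT26, and 12.1 ± 2.7 in B16F10. Tollip was 43.2 ± 4.7 TPM in EMT6 and 18.5 ± 3.4 in MC38, Tank was 67.1 ± 10.3 in EMT6 and 22.0 ± 6.4 in B16F10, and Cd300a was 17.5 ± 4.6 in MC38OVA and 1.82 ± 0.72 in B16F1. Of 14 target genes 12 were tested and 12 differed, and Il12a and Ifnb1 were too low to test. Against the other lines, 9 of 12 targets were higher in MC38OVA (background 10.2%), 8 in MC38 (8.24%) and 8 in EMT6 (10.2%), while 9 were lower in B16F1 (13.2%) and 6 in B16F10 (23.2%). Cxcl10, an interferon-induced chemokine, was 942 ± 51.5 TPM in MC38OVA, 855 ± 142 in MC38 and 5.47 ± 1.55 in Renca. Ptgs2, the inducible cyclooxygenase, was 360 ± 70.5 TPM in EMT6 and 0.505 ± 0.246 in Renca, and Cxcl2, a neutrophil attractant, was 109 ± 14.5 in EMT6 and 0.868 ± 0.251 in CMS5a. Il6 stayed at 1.49 TPM or less in each line mean.

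The targets and the receptors were not highest in the same lines throughout. Renca, with the highest Tlr5 and high Tlr2 and Cd14, had 0 of 12 targets higher and 4 lower (background 12.4% and 10.5%). MC38 had 8 targets higher and 1 receptor higher, Tlr9. Of the mouse receptors outside the 10, Tlr12 differed between lines and was 4.03 ± 1.01 TPM in MC38OVA and 0.360 ± 0.285 in EMT6, while Tlr11 reached 1.11 ± 0.51 TPM in MC38OVA and was not called.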

How the data were processed

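RNA sequencing of 30 tumour libraries, 3 for each of 10 lines, was read from 1 table of TPM, which the authors deposited. Per the submitters' processing notes the tools were Trim Galore 0.6.5, STAR 2.7.3a and StringTie 2.1.2 on build mm10, and per the labels' protocols the libraries were made with a stranded mRNA kit. The annotation and the strand setting of the counting are not given in the sources used here. TPM keep no depth, so no counting error could be given. Each library summed to 1000000 TPM and had 12065 to 14602 genes at 1 TPM or more, mitochondrial genes took 9.17 to 39.0% of the TPM, and no pair of libraries was identical. The labels do not say that the 3 libraries of a line came from separate mice, so p-values measure the spread between these samples.

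The deposited TPM were taken as log2(TPM + 1) and fitted with limma 3.58.1 in R 4.3.3 (line means, trended variance, 20 residual degrees of freedom) over the 17944 genes with at least 1 TPM in 3 or more libraries. A call needed a Benjamini-Hochberg adjusted p under 0.05 over all those genes and a log2 difference of 1 or more. Fold differences on this scale understate changes of low genes. For the values relative to Ptprc, log2(Ptprc TPM + 1) of the library was subtracted from every gene. The fit was tested on simulated data.

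Gene positions and coding sequences (the longest open reading frame of a transcript) were taken from GENCODE M21 on mm10, and promoters from RefSeq. The receptors, the pathway lists and the lists of markers were chosen with earlier results of these data known. Named were the receptors, the 4 genes of each pathway list with the largest range of line means relative to Ptprc, and the 3 genes most like each receptor. For Tlr7, 1 of these genes is not reported here. Ly96, Unc93b1, Myd88, Irf5, Arhgdib and single cell type markers fall outside that rule and were named after their values were seen. The alternatives were other pseudocounts, filters and scalings, no size threshold, replicate number as a block, libraries or the B16 lines left out, and other measures of leukocyte content.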

Additional observations from a re-analysis of the deposited data

Results flagged for a closer look

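The change of Tlr5 between a line and its antigen-bearing form differed between MC38 and CT26. MC38OVA minus MC38 exceeded CT26NYESO1 minus CT26 by 1.59 on the log2(TPM + 1) scale (SE 0.39, limma adjusted p = 0.0203), from a test of the difference itself. Tlr5 was 2.32, 1.19 and 2.61 TPM in MC38, 3.35, 6.82 and 7.66 TPM in MC38OVA, 1.58, 0.871 and 0.492 TPM in CT26, and 0.403, 0.235 and 0.708 TPM in CT26NYESO1. All 3 MC38OVA libraries lay above MC38, while those of CT26NYESO1 and CT26 overlapped. Ptprc was also higher in MC38OVA than in MC38, and relative to it the difference was 0.33 (adjusted p = 0.674).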

How the results depend on the processing

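TPM keep no read depth, so the precision of low values such as Tlr5 under 1 TPM is unknown. Of 47 receptor calls as measured, 28 stood under all alternatives and 33 when any single library was left out, and of 26 relative to Ptprc 5 and 13 did. Dropping the size threshold could only add calls, so it could not remove one. Calls of B16F1 and B16F10 could not be checked without the B16 lines. As measured, the pairs gave 5 higher calls, against 1 with a pseudocount of 0.1 (and 1 lower against 0), 2 without a filter on low values and 3 with median-ratio scaling. Lines against the others gave 20 higher and 21 lower, 33 and 32 without the size threshold, and 13 and 12 without B16F1 and B16F10, where 2 lines fewer were compared. The difference between antigen pairs gave 1, and 2 without the B16 lines. Relative to Ptprc, the pairs gave 1 higher call, 2 with a pseudocount of 0.1 and 3 with the myeloid score. It was 0 without the B16 lines, since the 1 call is in the B16 pair. Lines gave 12 higher and 13 lower, 6 and 8 with the leukocyte score, 8 lower with the myeloid score, and 7 lower without the B16 lines and with Ptprc as covariate. The F test called 17889 genes, and 39121 without a filter, where more genes were tested. The causes of the other changes were not tested.

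Directions reversed in 7 cases, all relative to Ptprc: Tlr5 in B16F10 with a pseudocount of 0.1 (-0.15) and with Ptprc as covariate (-0.36), Tlr7 in B16F10 with the leukocyte score (-0.0532) and as covariate (-0.39), Tlr6 in B16F10 (-0.71) and Tlr3 in B16F1 (-0.0034) as covariate, and Tlr13 in Renca with the myeloid score (-1.15). Here too the cause was not tested.

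When single libraries or replicate numbers were left out, the F test called 10 receptors each time as measured, and 14276 to 15661 genes. Lines gave 18 to 23 higher and 19 to 22 lower calls, the pairs 1 to 8 higher and 0 to 1 lower, and the difference between antigen pairs 0 to 5. Relative to Ptprc the ranges were 6 to 10 receptors and 17625 to 17912 genes in the F test, 10 to 14 higher and 4 to 14 lower for lines, and 1 to 2 for pairs.

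Replicate numbers did not pair the samples: deviations of libraries with the same number had a mean r of 0.004, and those with different numbers -0.002. With the replicate number as a block, no count as measured moved by over 1.5 times, and relative to Ptprc the pairs gave 2 higher calls against 1 and the F test 10 receptors against 9.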
